A study of Mus musculus with 8 samples.

Results

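MicroRNA genes are described here through 235 features of a deposited gene table of 17091. They are all the rows whose name begins with Mirlet, or with Mir and a digit, without those ending in hg (which name host transcripts) and without Mir210. The rule uses names alone, with no value and no test, although earlier results of these data were known. The table was made by RNA sequencing of immortalised skin fibroblasts, cells adapted to continuous culture, of 2 genotypes: C57BL/6, called WT, and mir210lox/lox, called KO in the library names. Each genotype was cultured in 21% oxygen (normoxia) and in 1% oxygen (hypoxia) over 24 hours, and each of the 4 groups has 2 libraries. A lox site marks DNA that Cre recombinase can remove. The labels name no Cre, so KO is used only as the group's name. Mir210 itself was listed at 1, the lowest value of the table, in all 8 libraries, which checks neither genotype. Whether a group's libraries stem from separate cultures is not stated. The p-values therefore reflect the spread between these libraries alone, and that spread may be technical.

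Values are normalised read counts as the authors deposited them. The spacing of low values gave an estimate of what 1 read is worth in each library, from 0.674 to 1.384, and with it an estimated 6.27 to 11.76 M reads per library. A value of 10 then rests on 7.2 to 14.8 reads. The fibroblast genes Col1a1 (4983 to 8590) and Vim (22681 to 35333) were high in every library, whereas Dcn (12 to 93) and Lum (1 to 36), also fibroblast matrix genes, were low. Markers of other skin cells were low but not all absent. Among keratinocyte genes Krt5 was at 1 throughout and Krt14 and Epcam did not exceed 8, while Krt10 ran from 10 to 26 and Cdh1 from 8 to 38. Of leukocyte genes Ptprc did not exceed 6 and Aif1 3, while Cd68 ran from 6 to 18 and Lyz2 from 1 to 20. The endothelial genes Pecam1 and Cdh5 did not exceed 2 and 8, and Kdr and Tek reached 25 and 27. Such values reach those of Dcn and Lum.

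A microRNA begins as a hairpin within a longer transcript. In the nucleus Drosha and Dgcr8 cut the hairpin out, Xpo5 exports it, and Dicer1 trims it to a short mature strand that an Argonaute protein carries to matching messenger RNAs. Pairing runs chiefly through the seed, bases 2 to 8 of the mature strand. Some annotated hairpins lie within small nucleolar RNAs (snoRNAs) or small Cajal body RNAs (scaRNAs), stable nuclear RNAs that guide chemical modification of ribosomal and spliceosomal RNA. Most snoRNAs and scaRNAs are released from introns of host genes. Those of the H/ACA kind fold into hairpins and carry the letters ACA close to their end. Fibroblasts are known for abundant miR-21, miR-22, miR-199a, miR-214 and let-7.

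The sequences that matter most here are the snoRNAs and scaRNAs that hold an annotated microRNA hairpin, because their members were among the highest rows. Each is printed 5′ to 3′ as DNA from the GRCm38 genome, with the bases shared with the microRNA hairpin in capitals. Scarna3a lies at chr1:159340283-159340422 (plus strand) and holds Mir1843b. Scarna3b lies at chr12:80391613-80391751 (minus strand) and holds Mir1843, a near copy of Mir1843b. Snora36b lies at chr1:185242907-185243038 (plus strand) and holds most of Mir664. Scarna13 lies at chr12:105031075-105031349 (minus strand) and holds Mir3069. Snord33 lies at chr7:45126864-45126947 (minus strand) and shares only its 5′ end with Mir5121. The last line is the snoRNA at chr10:128085289-128085360 (plus strand), which carries the name Mir677 in GENCODE M21.
Scarna3a: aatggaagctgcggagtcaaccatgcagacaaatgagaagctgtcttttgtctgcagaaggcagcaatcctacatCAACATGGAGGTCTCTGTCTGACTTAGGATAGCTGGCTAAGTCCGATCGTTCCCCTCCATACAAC
Scarna3b: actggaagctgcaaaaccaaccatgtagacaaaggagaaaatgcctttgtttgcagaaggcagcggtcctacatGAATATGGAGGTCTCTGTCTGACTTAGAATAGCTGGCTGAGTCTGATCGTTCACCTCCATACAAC
Snora36b: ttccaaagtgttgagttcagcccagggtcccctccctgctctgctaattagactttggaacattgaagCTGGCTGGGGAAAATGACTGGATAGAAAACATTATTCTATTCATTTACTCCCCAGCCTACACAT
Scarna13: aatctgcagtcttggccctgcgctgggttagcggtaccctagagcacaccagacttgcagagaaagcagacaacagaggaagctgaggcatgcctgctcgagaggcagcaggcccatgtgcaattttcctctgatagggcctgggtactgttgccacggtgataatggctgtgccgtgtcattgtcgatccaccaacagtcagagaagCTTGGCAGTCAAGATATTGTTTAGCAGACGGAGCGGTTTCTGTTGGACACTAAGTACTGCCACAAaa
Snord33: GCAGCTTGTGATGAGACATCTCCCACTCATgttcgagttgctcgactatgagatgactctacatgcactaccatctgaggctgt
Mir677 snoRNA: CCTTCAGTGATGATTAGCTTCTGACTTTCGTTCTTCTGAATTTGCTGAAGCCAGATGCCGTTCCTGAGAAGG
In Scarna3a, Scarna3b, Snora36b and Scarna13 the hairpin is the 3′ part of the longer RNA. Over 8 such RNAs (that of Mir1949 was left out), the letters ACA on the RNA's own strand stand 3 bases before the annotated end in 4, among them Snora36b and Scarna13. The same letters stand there in 19.3% of the 1558 annotated snoRNA and scaRNA genes. Scarna3a and Scarna3b, which end in ATACAAC, carry the letters nearer the end, and the count of 4 leaves them out. The 8 RNAs were not restricted to the H/ACA kind.

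Mature strands are given next for members of both kinds, the first 5 from hairpins on a snoRNA or scaRNA and the others from hairpins in host exons. They come from RefSeq (GRCm38), in which 216 members had a mature strand. The seed is in capitals.
miR-1843a-5p: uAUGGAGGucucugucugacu
miR-1843b-5p: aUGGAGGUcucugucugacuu
miR-664-3p: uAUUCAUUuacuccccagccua
miR-677-5p: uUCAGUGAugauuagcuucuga
miR-3069-3p: uUGGACACuaaguacugccaca
miR-21a-5p: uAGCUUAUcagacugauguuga
miR-22-3p: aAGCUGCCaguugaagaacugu
miR-92a-3p: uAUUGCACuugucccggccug
miR-199a-5p: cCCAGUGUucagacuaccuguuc
miR-214-3p: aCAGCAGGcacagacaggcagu
let-7d-5p: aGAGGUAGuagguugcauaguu
let-7f-5p: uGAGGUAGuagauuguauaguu
The strands of Mir1843 and Mir1843b share a long run but are annotated 1 base apart, so their seeds differ. Among the 37 members that were tested and had a mature strand, GAGGUAG of let-7d-5p and let-7f-5p was the one seed that 2 features shared. Over all 216 members, 356 mature strands held 314 distinct seeds, of which 30 occurred in more than 1 member.

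Most microRNA features were at or close to the floor of the table. Of the 235, 106 were at 1 in all 8 libraries and 48 were above 1 in all 8. The number above 1 in a single library ran from 66 to 84. A value of 100 was reached in at least 1 library by 16. A test was run where a feature reached 10 in at least 2 of the 8 libraries, which 43 members (18.3%) did. The 192 others included 86 that were above 1 somewhere, with a highest value of 14. Just inside this limit were Mirlet7d, Mir27b, Mir1893 and Mir19b-1, whose second-highest values were 10 to 12. Just outside were 11 members with a second-highest value of 7 to 9, among them Mir5113, Mir671 and Mir763 at 9.

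Members that reached the limit were spread unevenly over the annotation of GENCODE M21 (GRCm38). A position was found for 203 members as a RefSeq hairpin and for 27 in GENCODE. The microRNA records searched gave none for 5 (Mir5117, Mir1940, Mir3096, Mir3096b and Mir5109). Mir5117, which RefSeq gives as another name of Gas5, was left among these. All 9 members whose hairpin overlaps a snoRNA or scaRNA on its strand were tested, and none of these was at 1 throughout. Of 29 members in an exon of a coding transcript, 13 (44.8%) were tested. The figure was 8 of 35 (22.9%) in exons of long non-coding RNAs and 5 of 18 (27.8%) in exons of non-coding transcripts of coding genes. Of 91 members in introns, 1 (1.1%) was tested and 55 were at 1 in all 8 libraries. Of 47 members outside genes on their strand, 2 (4.3%) were tested and 27 were at 1 throughout. The remaining member with a position, Mir1983, overlaps the tRNA gene n-TItat14 and was tested, and 4 of the 5 without a position were tested.

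**Figure D1:**
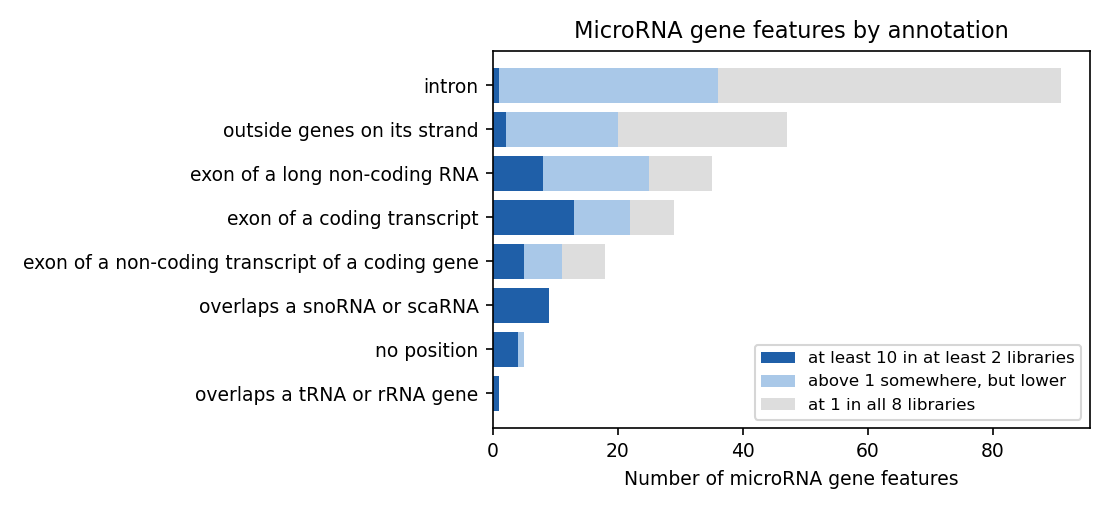
Number of microRNA gene features (horizontal axis) in each annotation class (vertical axis), divided by level: at least 10 in at least 2 libraries, above 1 somewhere but lower, or at 1 in all 8. The bar for introns is the longest, with 91 features, and holds 1 at the higher level, whereas all 9 features on a snoRNA or scaRNA are at that level.

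The 15 features with the highest mean over the 8 libraries had means of 68.0 to 1441.6, and 7 of them overlap a snoRNA or scaRNA. Of the other 8, 3 have no position, 3 lie in a coding exon, 1 lies on a tRNA gene and 1 lies outside genes on its strand. By mean the order was Mir5117, Mir3069, Mir1940, Mir1949, Mir5121, Mir1843b, Mir664, Mir677, Mir686, Mir1983, Mir1843, Mir719, Mir5136, Mir1892 and Mir3096b. Neighbours in this order had overlapping ranges over the libraries. Mir5117, for example, ran from 538 to 3175 and Mir3069 from 605 to 1804. Such values are not per length, and the order is that of the rows as deposited. The 9 features on a snoRNA or scaRNA summed to 1197 to 4629 per library, 36.9% to 50.0% of the sum over all members. Together with the 5 features without a position they made up 66.2% to 85.4%.

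**Figure D2:**
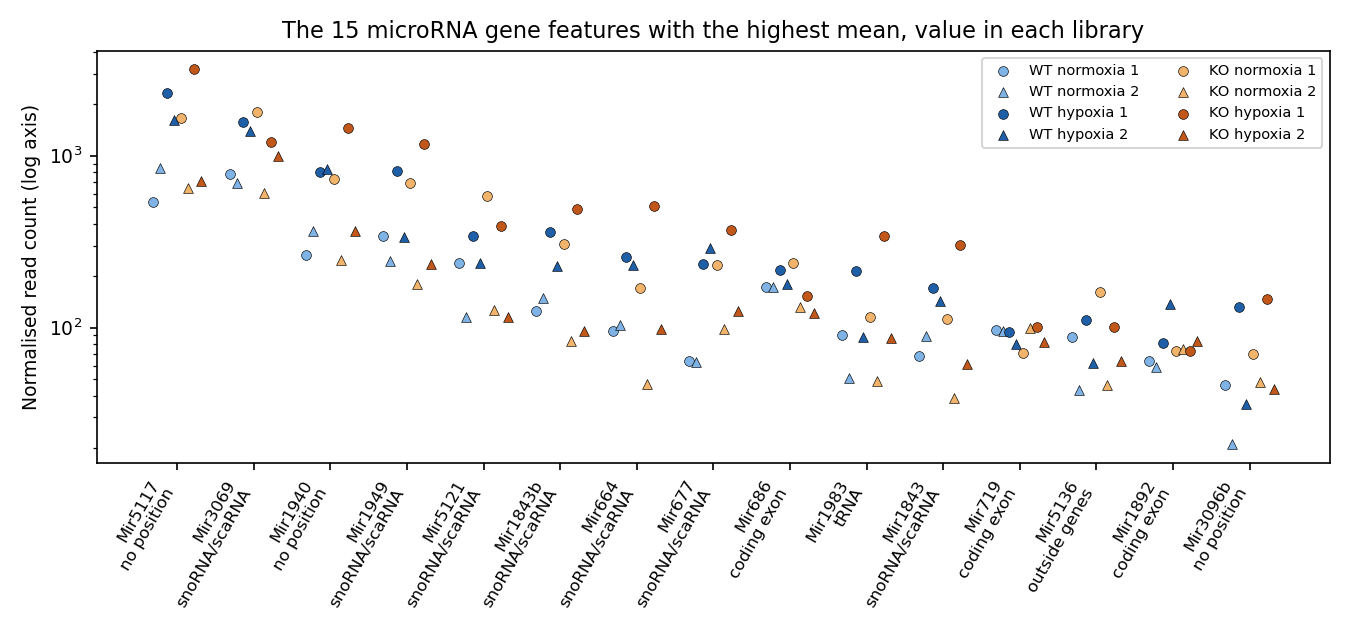
Normalised read count (vertical log axis) of the 15 microRNA gene features with the highest mean (horizontal axis, with annotation class), 1 point per library, circles for replicate 1 and triangles for replicate 2. Mir5117 and Mir3069 have the highest means, and several rows on a snoRNA or scaRNA have their highest value in KO hypoxia 1, such as Mir664 at 508.

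The rows of a hairpin and of the longer small RNA around it can be set side by side for 5 members. The Scarna3a row was at 130 and 153 in WT normoxia and at 384 and 240 in WT hypoxia. It was at 323 and 85 in KO normoxia and at 536 and 104 in KO hypoxia. Mir1843b was at 91.2% to 98.8% of it (median 94.7%), although its hairpin shares 65 bases with a scaRNA of 140. Mir1843 was at 83.6% to 93.7% of Scarna3b (median 89.3%), and Mir664 at 77.0% to 85.8% of Snora36b (median 80.5%). Mir3069, whose 65 bases all lie in the much longer Scarna13, was at 31.7% to 40.8% of it (median 35.1%). Mir5121, of whose 74 bases 30 lie in Snord33, was at 36.1% to 61.3% (median 49.0%). Each of these 5 rows was below its small RNA row in all 8 libraries. Mir1843b, Mir1843 and Mir664 had their highest value in KO hypoxia 1 and their lowest in KO normoxia 2, as did their small RNA rows. How reads over both annotations were assigned, and whether strand was used, is not given in the sources used here, so the values of such pairs are uncertain. For Mir1949, Mir677, Mir3068 and Mir1839 the snoRNA or scaRNA record has the microRNA's own name, and which of the records a row stands for is not known. Mir1843 and Mir1843b, like Mir3096 and Mir3096b, are near copies that may share reads.

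**Figure D3:**
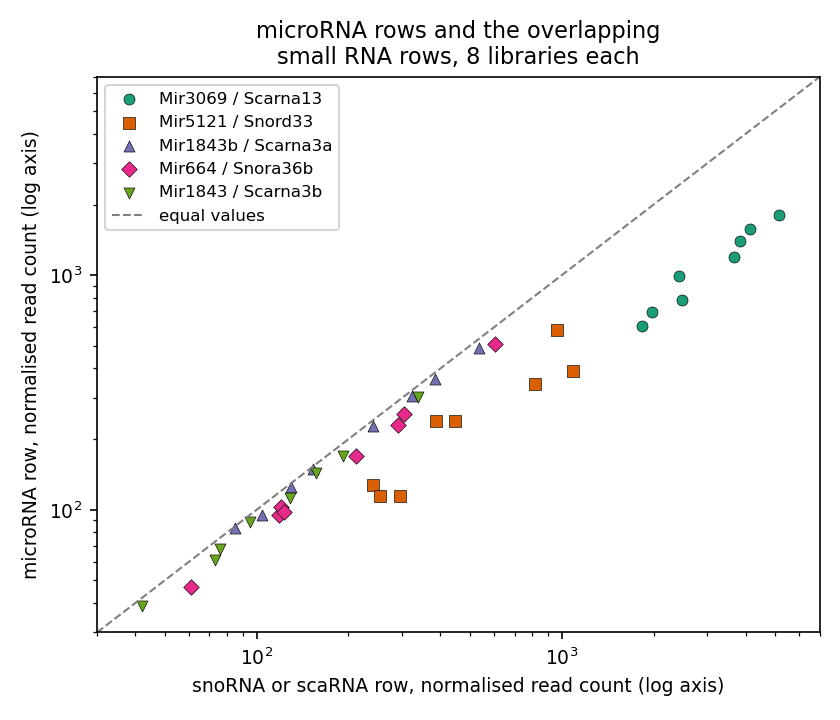
Normalised read count of 5 microRNA rows (vertical log axis) against the row of the snoRNA or scaRNA that overlaps the hairpin (horizontal log axis), 8 libraries each, with a dashed line at equal values. Mir1843b, Mir1843 and Mir664 lie just below the line, at medians of 94.7%, 89.3% and 80.5%, and Mir3069 and Mir5121 lie further below.

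Per length, rows on a snoRNA or scaRNA stood far above their host genes. Values per 100 bases of hairpin were compared with values per 100 bases of the host's annotated exons. Of 7 such members with a host row, 6 were above the host in all 8 libraries, and the median of the 7 ratios was 16.8. Mir3069 had a median of 1682 per 100 bases against 5.39 for Snhg10, a snoRNA host transcript, a ratio of 273.5 to 347.5. Mir664 had 198 against 6.05 for Rab3gap2, which encodes part of a regulator of Rab GTPases, and the ratio ran from 12.4 to 122. The exception was Mir677 in Atp5b, the gene of the mitochondrial ATP synthase beta subunit, whose 228 per 100 bases compared with 396 for the host and was above it in 1 library. Mir5121, in the ribosomal protein gene Rpl13a, was above its host by a median ratio of 1.40 only. Host length covers every annotated exon, used or not, so a ratio near 1 is not a sharp boundary. Whether reads that reach past a hairpin's ends were counted for its row is not given in the sources used here. Counting them would raise the ratio of a short row, here and in the paragraphs below.

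Members in coding exons were closer to the level of the host messenger RNA. For 12 of them with a host row the median of the ratios was 1.77, with 8 above the host in all 8 libraries and 2 below. Of the 13 tested, 7 lie in a 3′ UTR, 3 in coding sequence and 3 in either, depending on the transcript. Mir686, at chr14:54616677-54616785 in the coding sequence of the proteasome subunit gene Psmb5, was the highest. It was at 172 and 172 in WT normoxia, 215 and 178 in WT hypoxia, 237 and 132 in KO normoxia, and 152 and 121 in KO hypoxia. Its ratio to Psmb5 was 3.84 to 4.54. Mir1892, in the 3′ UTR of Sptssa (a serine palmitoyltransferase subunit gene), had a median ratio of 2.11, and Mir5114, in Scd2 (a fatty acid desaturase gene), of 2.06. Mir1306 lies in the coding sequence of Dgcr8, which encodes Drosha's partner, at chr16:18284239-18284317. It ran from 12 to 32 (median 20.5), with a median ratio to Dgcr8 of 2.07. Mir719, at chr14:60228806-60228915, lies in coding sequence of the gene model Gm49336 and ran from 71 to 101.

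The row of Mir21, whose strand miR-21 is known to be abundant in fibroblasts, was low and even here. Such a row does not separate reads of the mature strand from reads of the hairpin or the host transcript. A low row here therefore gives no level of the mature strand. Mir21 lies at chr11:86584067-86584158, within an exon annotated as 3′ UTR of Vmp1, an autophagy gene. Its values were 23 and 24 in WT normoxia, 24 and 20 in WT hypoxia, 26 and 22 in KO normoxia, and 21 and 23 in KO hypoxia. The 4 groups overlapped or met. Per 100 bases it was at 25.0 against 49.0 for Vmp1, and the ratio was below 1 in all 8 libraries (0.357 to 0.575). The single tested intronic member, Mir704 in the endoplasmic reticulum chaperone gene Pdia4, likewise stayed below its host's exons, at 0.139 to 0.472.

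Members in exons of long non-coding RNAs were low too. Mir22, in Mir22hg at chr11:75463716-75463810, was the highest of these, at 22 and 31 in WT normoxia, 34 and 35 in WT hypoxia, 28 and 21 in KO normoxia, and 42 and 26 in KO hypoxia. Its level per 100 bases was 31.1 against 21.1 for Mir22hg, above it in all 8 libraries. Mir199a-2 and Mir214 start 191 and 5745 bases into Dnm3os, a transcript antisense to Dnm3. Mir199a-2 was at 12 and 14 in WT normoxia, 18 and 32 in WT hypoxia, 26 and 15 in KO normoxia, and 29 and 17 in KO hypoxia. Mir214 ran from 7 to 27. In WT hypoxia 2 both members and Dnm3os had their highest value (32, 27 and 1466). The strand of miR-199a-5p is also made from another gene, so a mature read could not be given to Mir199a-2 alone.

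Mir17hg carries the hairpins of the mir-17/92 cluster, a growth-promoting group that is cut from 1 transcript. Their rows differed widely although they share it. In order along Mir17hg, Mir17 was at 1 in all 8 libraries, Mir18 ran from 7 to 24 (median 10.5), Mir19a from 1 to 6, Mir20a from 1 to 5 and Mir19b-1 from 2 to 12. The last hairpin, Mir92-1, ran from 9 to 31 (median 24.5). Mir92-1 was above Mir17, Mir19a and Mir20a in every library. Per 100 bases Mir92-1 was at 30.6, against 8.71 for Mir17hg, with a ratio of 1.79 to 4.46. Mir19b-1 was below the host by its median ratio of 0.464.

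**Figure D4:**
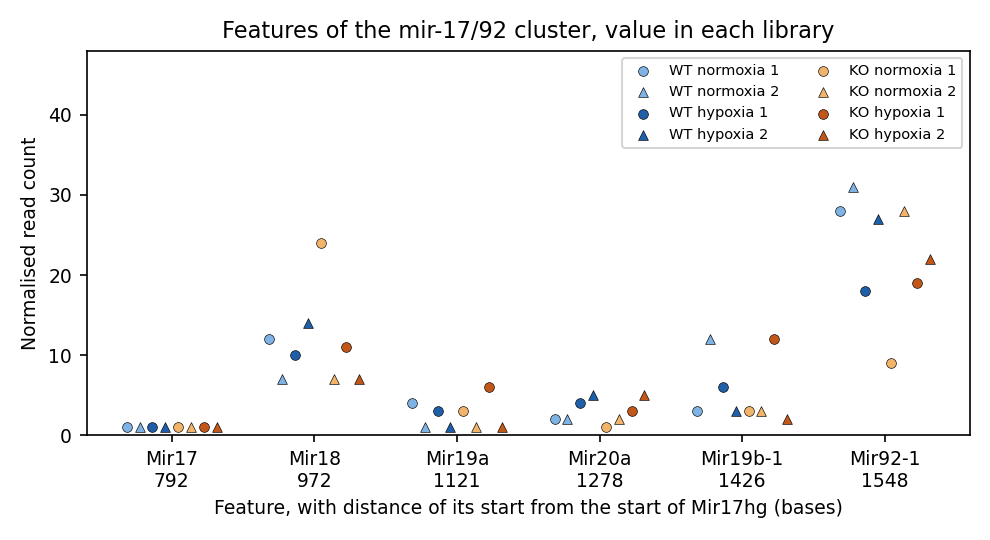
Normalised read count in each library (vertical axis) for the 6 hairpins of the mir-17/92 cluster in their order along Mir17hg (horizontal axis, with the distance of each start from the start of Mir17hg in bases). Mir92-1 has the highest median (24.5, from 9 to 31) and Mir17 is at 1 in all 8 libraries. In KO normoxia 1, Mir18 (24) exceeds Mir92-1 (9).

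Rows of families well known in fibroblasts or in hypoxia were equally low, which gives no level of their mature strands. Over let-7, mir-17/92 with its paralogs, mir-21, mir-22, mir-29, mir-34, mir-143 with mir-145, mir-199 with mir-214, mir-221 and the mir-23/27/24 group, the table had 38 members. Of these, 10 were tested, 11 were at 1 in all 8 libraries and the highest single value was 42. let-7 restrains growth genes, and 2 of its 9 features were tested. Mirlet7f-1 was at 10 and 8 in WT normoxia, 8 and 26 in WT hypoxia, 13 and 5 in KO normoxia, and 8 and 16 in KO hypoxia. Mirlet7d did not exceed 10, and the largest value among the 7 untested let-7 features was 11, in Mirlet7i. mir-29, which targets collagen messengers, had 3 features with a highest value of 5. In the mir-23/27/24 group, Mir27b alone was tested, at 2 to 13. Mir143, Mir145, Mir221, Mir93 and Mir106b were at 1 in all 8 libraries.

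No microRNA feature passed the test in any comparison. With limma on log2(value + 1), fitted to all 12107 tested features with a Benjamini-Hochberg adjusted p threshold of 0.05, 0 of 43 members were called in hypoxia against normoxia in WT, where 0.107% of features were. In KO 0 members were called, beside 0.0578% of features. These backgrounds, 13 and 7 features, move with single libraries: without WT hypoxia 2, 1 feature was called in WT, and without KO normoxia 2, 760 were called in KO, with 0 members in both. KO against WT gave 0 members and 0% of features at each oxygen level, and so did the difference of the hypoxia responses. Over both genotypes hypoxia gave 0 members and 0.363% of features, while the genotype comparison that pools both oxygen levels gave 0 members and 0.0248%. At an unadjusted limma p under 0.05 there were 5 of 43 members in WT hypoxia (6.33% of features) and 0 in KO hypoxia (3.2% of features). For KO against WT there were 3 in normoxia (3% of features) and 2 in hypoxia (7.52% of features). The difference of responses had 0 (3.14% of features), hypoxia over both genotypes 5 (5.29% of features) and the pooled genotype comparison 2 (6.07% of features). No other tool was run, since rounded normalised values carry no count model. With 2 libraries against 2 the smallest exact p is 0.333, so the tests rest on the spread shared over the 4 groups.

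In WT, the members on a snoRNA or scaRNA were higher in the hypoxia libraries. All 9 had a higher mean (median log2 change 1.01, against -0.02 over all tested features), and in 7 of 9 both hypoxia values were above both normoxia values, where 18.9% of features were. In bulk libraries, more cells with an RNA and more of it per cell cannot be told apart. Mir677 had the smallest limma p of all members. It was at 64 and 63 in WT normoxia and at 235 and 292 in WT hypoxia, a log2 change of 2.03 ± 0.50 (SE) with a limma adjusted p of 0.452. Mir3069 was at 787 and 697 in WT normoxia and at 1580 and 1401 in hypoxia (1.01 ± 0.41, limma adjusted p 0.784). Mir664 went from 95 and 103 to 256 and 230, Mir1843b from 125 and 149 to 362 and 228, and Mir1843 from 68 and 89 to 170 and 143, each without overlap. The groups overlapped for Mir1949 (343 and 245 against 819 and 335) and met at 238 for Mir5121 (238 and 115 against 343 and 238).

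The same direction held for snoRNAs and scaRNAs at large, so it was not particular to microRNA rows. Of 107 tested snoRNA and scaRNA rows, 106 had a higher mean in WT hypoxia (median log2 change 1.20) and 99 did not overlap. Such rows took 1.22% and 0.964% of the total in WT normoxia and 2.77% and 2.20% in WT hypoxia. When libraries were scaled to an equal snoRNA and scaRNA median, 2 of the 9 members were higher in WT hypoxia, with a median of -0.18, a scaling that also moved the median of all features by -1.19. Other tested members were mixed. The 13 in coding exons had 6 higher and 7 lower means (median -0.10), and the 5 in non-coding transcripts of coding genes had 3 higher (median 0.30). Of the 8 in exons of long non-coding RNAs 6 were higher (median 0.52), as were both members outside genes (median 0.52), and intronic Mir704 was at -0.46. The sum over members neither on a snoRNA or scaRNA nor without a position was 1290 and 1205 in WT normoxia and 1475 and 1364 in WT hypoxia.

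Features without a position and the tRNA feature lay on the side of the snoRNA group. Mir5117 was at 538 and 846 in WT normoxia and at 2329 and 1621 in WT hypoxia (1.52 ± 0.63, limma adjusted p 0.784). RefSeq gives Mir5117 as another name of Gas5, a snoRNA host transcript, and the Gas5 row was at 9464 and 9733 in WT normoxia and at 25472 and 23526 in WT hypoxia. Mir1940 was at 264 and 365 against 806 and 840 (1.40 ± 0.60, limma adjusted p 0.784). Mir1983, on the isoleucine tRNA gene, was at 90 and 51 in WT normoxia and at 212 and 88 in WT hypoxia, which overlap. In KO it was at 115 and 49 in normoxia and at 342 and 87 in hypoxia (log2 change 1.19), which overlap as well. Among the exonic members, Mir1892 in Sptssa was at 64 and 59 against 81 and 137 in WT (0.77 ± 0.31, limma adjusted p 0.784).

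**Figure D5:**
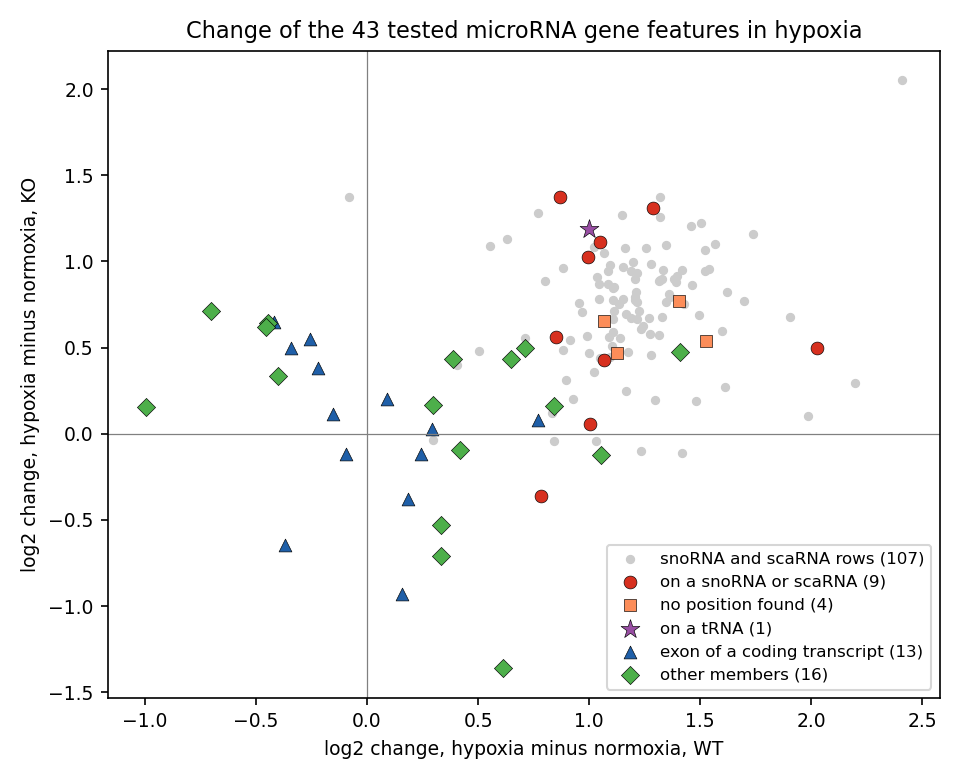
Log2 change in hypoxia for each tested microRNA gene feature in WT (horizontal axis) and in KO (vertical axis), coloured by annotation class, with the 107 snoRNA and scaRNA rows in grey. The 9 features on a snoRNA or scaRNA lie right of 0 among the grey points, with Mir677 at 2.03 in WT, while those in coding exons lie around 0.

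In KO, values of the snoRNA group turned on single libraries. Of the 9 members 8 had a higher mean in hypoxia (median 0.56, against 0.01 over all tested features), but none was without overlap, where 15.9% of features were above and 16.3% below. Mir664 was at 170 and 47 in KO normoxia and at 508 and 98 in KO hypoxia (1.31 ± 0.70, limma adjusted p 0.916). Mir677 was at 232 and 98 against 367 and 124, and Mir3069 at 1804 and 605 against 1195 and 991. The lone member with a lower mean was Mir5121, at 584 and 127 against 392 and 115 (-0.36). In both KO groups replicate 1 was the higher for all 9 members. Share of snoRNA and scaRNA rows in the total followed this, at 2.18% and 0.932% in KO normoxia and 4.33% and 1.29% in KO hypoxia. Without KO normoxia 1 all 9 were higher in hypoxia with a median of 1.54, and without KO hypoxia 2 the median was 1.72. Without KO normoxia 2 the median was -0.12 with 4 of 9 higher, and without KO hypoxia 1 it was -0.28 with 2 of 9 higher. With an equal snoRNA and scaRNA median, 4 of 9 were higher (median -0.19).

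Hypoxia over both genotypes had the same limits. All 9 members of the snoRNA group were higher (median 1.01, against 0.00 over all tested features), with Mir677 at 1.26 ± 0.35 (limma adjusted p 0.501) and Mir664 at 1.30 ± 0.49 (limma adjusted p 0.867). Mir1940 was at 1.09 ± 0.43, Mir1983 at 1.10 ± 0.46 and Mir5117 at 1.03 ± 0.44, with limma adjusted p-values of 0.892 to 0.922. None of the members was without overlap of the 4 hypoxia and the 4 normoxia libraries, as 2.06% of features were above and 1.65% below. Mir3069 alone was called in a fit that left out 1 library: without KO normoxia 1 its log2 change was 0.93 ± 0.13 with a limma adjusted p of 0.0357, against 0.53 ± 0.29 and 0.922 with all 8. That fit called 0.413% of features.

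None of the host-exon and family members passed the test in hypoxia, and their values ran in both directions. Mirlet7d was at 1 and 6 in WT normoxia and at 10 and 8 in WT hypoxia (1.41 ± 0.74, limma adjusted p 0.803), and Mir199a-2 changed by 0.84 ± 0.49 (limma adjusted p 0.814). Mir21 changed by -0.10 ± 0.37 in WT and by -0.12 ± 0.37 in KO on the log2 scale, and the 95% interval of the difference was -1.19 to 1.15. Mir22 had 0.39 ± 0.39 in WT and 0.43 ± 0.39 in KO. Mir214 was at 7 and 12 in WT normoxia and at 15 and 27 in WT hypoxia, beside 449 and 648 against 629 and 1466 for Dnm3os, and neither row passed the test. Mir351, an X-linked microRNA outside genes on its strand, was at 9 and 7 against 10 and 16 in WT and at 21 and 5 against 3 and 4 in KO. Its log2 change was -1.36 ± 0.69 in KO, followed by Mir5114 in Scd2 (98 and 71 against 65 and 43, -0.65 ± 0.33) and Mir5046 in the kinase gene Rps6ka4 (37 and 15 against 11 and 13, -0.93 ± 0.51). All 3 had a limma adjusted p of 0.916. For the difference of responses it was at -1.97 ± 0.98 and Mir677 at -1.53 ± 0.70 (95% interval -3.09 to 0.04), both with a limma adjusted p of 0.857. Next came Mir1306 (1.07 ± 0.62), Mir3069 (-0.95 ± 0.58) and Mir214 (-1.18 ± 0.72). The 95% interval of this difference included 0 for each of the 43 members.

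Between genotypes no member passed the test, and the smallest p-values belonged mostly to low rows. Mir1893, in an exon of the chromatin gene Epc1, was at 12 and 8 in WT normoxia and 10 and 15 in WT hypoxia, and at 3 and 5 in KO normoxia and 4 and 4 in KO hypoxia. It was the single member whose 4 KO values were all below the 4 WT values, as for 1.7% of features, and none had all 4 above, as for 1.95%. The log2 change over both oxygen levels was -1.28 ± 0.42 with a limma adjusted p of 0.669 and rests on values of 3 to 15. In the same pooled comparison Mir1903 was at -0.996 ± 0.44, Mir704 at -0.73 ± 0.37, Mir1306 at -0.43 ± 0.31 and Mir5114 at 0.32 ± 0.23, with limma adjusted p-values of 0.807 to 0.913. Mir1903, in an exon of a non-coding transcript of the receptor gene Nrp1, was at 21 and 26 in WT normoxia and at 3 and 13 in KO normoxia (-1.70 ± 0.62, limma adjusted p 1). Mir704 was at 31 and 37 against 9 and 20 (-1.27 ± 0.52), and Mir677 at 64 and 63 against 232 and 98 (1.24 ± 0.50), both with a limma adjusted p of 1. Mir1306 followed at -0.96 ± 0.44, from 23 and 32 to 12 and 15. In hypoxia, Mir351 was at 10 and 16 in WT and at 3 and 4 in KO (-1.61 ± 0.69, limma adjusted p 0.642). Mir546, in the phosphatase gene Ctdsp2, was at 52 and 40 against 78 and 69 (0.67 ± 0.35, limma adjusted p 0.642), and Mir3057, in a transcript of Apba3, at 9 and 5 against 15 and 12 (0.90 ± 0.50, limma adjusted p 0.655). Mir686, the highest exonic row, was at 215 and 178 against 152 and 121 (-0.53 ± 0.30, limma adjusted p 0.655).

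Genes of the microRNA pathway were present but none passed the test either. Of 36 listed genes for processing, export, dicing, Argonaute function and decay, 34 were tested and 0 were called by limma in any comparison. Lin28b, a repressor of let-7 maturation, was at 1 in all 8 libraries and Lin28a did not exceed 3. In WT hypoxia 10 were higher and 24 lower (median -0.13, against -0.02 over all features), and in KO hypoxia 25 were higher and 9 lower (median 0.13). Drosha, the nuclear nuclease, ran from 300 to 511, Dgcr8 from 713 to 1124, Xpo5 from 1521 to 2748 and Dicer1 from 388 to 879. A group of 9 silencing genes held 4 Argonaute genes, 3 TNRC6 genes, and Mov10 and Snd1, which encode other proteins linked to silencing complexes. All 9 had lower means in WT hypoxia (median -0.44), and 7 of 9 had higher means in KO hypoxia (median 0.31), the others being Snd1 at -0.40 and Eif2c1 at -0.01. Eif2c2, the older name of Ago2, was at 486 and 525 in WT normoxia, 478 and 292 in WT hypoxia, 293 and 675 in KO normoxia, and 699 and 743 in KO hypoxia. Its log2 difference between KO and WT in hypoxia, 0.95 ± 0.37, had the smallest p of the list (limma adjusted p 0.641). The low value in KO normoxia 1 and that in WT hypoxia 2 stood apart from their replicates. Without KO normoxia 1, 3 of the 9 were higher in KO hypoxia and the median was -0.15. Without KO normoxia 2, the median was 1.00 and 5 of the 9 were called by limma, but so were 760 of all tested features (6.28%), against 7 with all 8 libraries. The part of these libraries in the pathway values was not tested.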

How the data were processed

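RNA was measured in 8 libraries. Per the labels' protocols, total RNA was isolated with a miRNeasy kit and made into libraries with a New England Biolabs small RNA kit meant for SOLiD. The deposited score is, by the table's name, the authors' normalised read count. From the values it is a whole number of at least 1. Aligner, build, strand use and normalization were not given in the sources used here. Sample columns left unused numbered 0.

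Features of at least 10 in at least 2 libraries (12107) were tested as log2(value + 1) with limma 3.58.1 (trend, R 4.3.3) in a 4-group model of all 8 libraries without a replicate term, with two-sided Benjamini-Hochberg adjusted p-values in 7 comparisons. Fold changes on that scale understate those of low rows. Intervals are 95%. Overlaps came from RefSeq and GENCODE M21 on GRCm38. Scripts were tested on simulated data. Per comparison, the 5 members with the smallest p-values are named, besides the 15 with the highest means, the snoRNA class and known families. Members and lists were chosen with earlier results of these data known. Alternatives were pseudocounts, filters, scalings, a replicate block and leaving out libraries.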

Additional observations from a re-analysis of the deposited data

How the results depend on the processing

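The 5 members with the smallest p in each of the 7 comparisons (35 values) were recomputed under 18 other settings. Of the 624 log2 changes, 622 kept their direction and their side of the threshold. This agreement was partly fixed in advance, so it is no measure of stability. The replicate block, the filters and leaving out a library outside the comparison cannot alter a log2 change. The 35 were also picked by p in these same data, and none was under the threshold. The 2 that reversed did so in WT hypoxia with libraries scaled to an equal snoRNA and scaRNA median, where Mir1892 was at -0.42 and Mir3069 at -0.18. That scaling moves every value by the snoRNA and scaRNA median itself. With no filter on low values the number of members tested was 235, since none is then left out. Medians of the snoRNA class in KO turned with single libraries, as given above. Its median difference of the hypoxia responses was -0.29 with all 8 libraries. It was -1.27 without KO normoxia 2 and 0.68 without KO normoxia 1. For KO against WT in normoxia the class median was 0.23 with all 8 libraries. It was 1.15 without KO normoxia 2 and -0.69 without KO normoxia 1. The log2 change of Mir3069 for hypoxia over both genotypes is not among the 35 values, although Mir3069 is there for other comparisons. With all 8 libraries it was 0.53. Leaving out 1 library at a time moved it, to 0.93 without KO normoxia 1. Features called then ran from 1 (without WT hypoxia 2) to 20 in WT hypoxia, from 4 to 760 (without KO normoxia 2) in KO hypoxia and from 12 to 50 over both genotypes. Pseudocounts of 10 and 0.1 and the other scalings gave 0 members called in each comparison.

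Replicate numbers recur in each group. Deviations of libraries with the same number correlated at 0.565 and 0.229 within WT and KO, and at -0.112 to 0.112 across genotypes. No label ties the numbers to a culture or day, so whether libraries of a genotype with the same number belong together is not known. The values across genotypes do not settle this. The replicate block used 1 term for all 8 libraries and does not model pairs within a genotype. With the replicate block, 0 members were called in each of the 7 comparisons. Features called went from 13 to 19 in WT hypoxia, from 7 to 11 in KO hypoxia and from 44 to 56 over both genotypes. The smallest limma adjusted p of a member went from 0.452 to 0.167 in WT hypoxia and from 0.916 to 0.597 in KO hypoxia. Over both genotypes it went from 0.501 to 0.071. A value of 10 rests on an estimated 7.2 to 14.8 reads, so counting error is large for most members.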
